A study of Mus musculus with 8 samples.

Results

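Small heat shock proteins are ATP-independent chaperones that bind unfolding proteins and hold them for refolding or clearance, and they are most abundant in striated muscle, where they protect the contractile apparatus and the desmin network. The co-chaperone BAG3 links HSPB8 and HSP70 to the removal of damaged filaments by autophagy. Desmin and vimentin are intermediate filament proteins, the first typical of muscle cells and the second of mesenchymal cells and leukocytes. In fat, vimentin also surrounds lipid droplets.

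Brown adipose tissue (BAT) was compared between wild-type (WT) and db/db mice by bulk RNA-seq. The 9 genes described here are Cryab, Hspb1, Hspb2, Hspb6, Hspb7 and Hspb8, which encode small heat shock proteins, their partner Bag3, and the filament genes Des and Vim, out of 31053 genes in the count table. They were chosen by name from results of the same db/db and WT libraries, and their relation to the skeletal muscle actin gene Acta1 was part of that choice, so their levels, genotype differences and relation to Acta1 are a description and carry no test. All 9 were found in the table by their Ensembl identifiers. In mm10, Hspb1 lies on chromosome 5 at 135887919 to 135889563, Hspb8 on chromosome 5 at 116408491 to 116422864, Hspb6 on chromosome 7 at 30552178 to 30555443 and Bag3 on chromosome 7 at 128523616 to 128546981. Hspb7 lies on chromosome 4 at 141420779 to 141425311, Des on chromosome 1 at 75360329 to 75368579 and Vim on chromosome 2 at 13573927 to 13582826, and Cryab and Hspb2 are neighbours on chromosome 9.

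There were 4 libraries for each genotype, each from BAT of mice aged 8 weeks and labelled C57BL6/J. Each group held 4 mice. Per the methods all mice were males and tissue was harvested after a fast. The db/db mice, given there as B6.BKS(D)-Leprdb/J, carried a mutation of the leptin receptor gene in every cell. The methods name another supplier for the WT mice than for the db/db mice, whereas the study's list of resources names the same supplier for both and gives a db/db stock number that may be of another background strain. Source and background strain may therefore differ between the groups, and then cannot be told apart from genotype. Lepr itself had 0 counts in all libraries and could not check the genotype. The labels also name the stromal vascular fraction as cell type, a preparation that lacks adipocytes, but the 6 adipocyte markers summed to 8861 to 15741 CPM in WT and to 14523 to 19502 in db/db, so the libraries are treated as whole tissue.

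Total counts ran from 2374079 to 3240074 per library, and 3 counts corresponded to 0.902 to 1.33 CPM. CPM, the unit of all levels given here, are counts relative to the library's total over the genes tested, scaled by a normalization factor. Transcript length does not enter, so levels are compared between libraries and not between genes. The 28 skeletal muscle markers summed to between 592.4 and 2220 CPM in WT libraries, and in db/db to between 2982 and 15225 CPM. Replicate 1 of db/db held the highest Acta1 and the lowest mitochondrial share of counts, 30.7%, where the remaining db/db libraries had 36.8 to 37.6%. Results are therefore also given without that library. In bulk tissue, fewer cells of a type and less RNA per cell cannot be told apart.

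Promoters of 7 of the 9 genes were matched by symbol in RefSeq (mm10), Cryab and Hspb2 being without an entry. They were searched on both strands, over 250 bases before to 50 after the start, for the heat shock element, to which heat shock factors bind, and for motifs of muscle genes. The pair of triplets GAANNTTC was found in 4 of the 8 promoters of these 7 genes, those of Hspb1, Hspb8 and Bag3 and the second of 2 listed for Hspb6, and in 7.86% of all 32851 promoters. The 3 stretches below are the bases before the start of Hspb1, which holds this motif at 2 places, of the second listed start of Hspb6, which holds it beside a TATA box, and of Hspb7, which holds none of the motifs searched. Capitals mark the motifs, and the strand of the gene is + in each.
Hspb1, chr5:135887669-135887918: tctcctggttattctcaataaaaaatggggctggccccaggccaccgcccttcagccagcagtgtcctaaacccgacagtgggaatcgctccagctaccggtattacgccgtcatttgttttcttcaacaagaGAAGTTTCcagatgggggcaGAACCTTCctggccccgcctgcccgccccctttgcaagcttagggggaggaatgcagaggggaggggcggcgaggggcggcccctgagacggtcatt
Hspb6, chr7:30553051-30553300: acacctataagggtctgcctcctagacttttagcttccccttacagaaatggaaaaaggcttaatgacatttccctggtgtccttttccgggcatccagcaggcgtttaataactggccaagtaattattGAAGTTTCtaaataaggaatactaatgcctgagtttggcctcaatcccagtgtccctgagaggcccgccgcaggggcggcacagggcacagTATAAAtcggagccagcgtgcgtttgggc
Hspb7, chr4:141420529-141420778: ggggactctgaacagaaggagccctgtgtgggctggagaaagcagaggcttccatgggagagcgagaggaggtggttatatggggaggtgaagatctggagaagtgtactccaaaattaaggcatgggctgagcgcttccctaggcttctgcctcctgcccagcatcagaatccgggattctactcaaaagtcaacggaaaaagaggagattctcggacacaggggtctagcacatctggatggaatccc

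In Hspb1 the matches lay at positions −117 to −110 and −97 to −90, and in Hspb6 at −120 to −113, counted from the start. In Hspb8 and Bag3 the match GAAGTTTC lay behind the start, at 3 to 10 and at 43 to 50. The other arrangement, TTCNNGAA, was in none of the 8 promoters and in 8.52% of promoters, and the longer element of 3 triplets, GAANNTTCNNGAA, was in none of the 8 and in 0.603% of promoters. The TATA box, TATAAA, was found in the second promoter of Hspb6, in Vim and in 13.6% of promoters. The E-box CAGCTG was found in Des and in 16.3% of promoters. The CArG box and the MEF2 site, by which muscle genes are controlled, were in none of the 8, and in 1.63% and 3.19% of promoters. These matches describe letters within a window and say nothing of binding.

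The small heat shock protein gene Cryab, which encodes alphaB-crystallin, showed the largest difference of the 8 genes that passed the count filter. Its level was 15.0, 19.8, 16.9 and 22.9 CPM in WT replicates 1 to 4 and 645.9, 445.1, 558.1 and 331.4 CPM in db/db replicates 1 to 4. The lowest db/db library was 14.5-fold above the highest WT library. The log2 fold change was 4.73 (SE 0.22), or 26.5-fold, and it was 4.57 (SE 0.19) without db/db replicate 1. Cryab (ENSMUSG00000032060, chromosome 9, 50751325 to 50756636, mm10, plus strand) overlaps Hspb2 on the opposite strand by 252 exonic bases, and as the strand setting of the counting is not stated, reads there cannot be told apart.

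Hspb2 (ENSMUSG00000038086, chromosome 9, 50751078 to 50752354, minus strand), the neighbour of Cryab whose protein binds the myotonic dystrophy kinase, was almost undetected in WT. It had 1, 0, 0 and 1 counts in WT and 49, 20, 23 and 10 counts in db/db. The summed counts, 2 against 102, gave a ratio of 44.1 with a 95% counting interval of 11.9 to 368.7. Hspb2 did not pass the count filter and was not part of the fit. Its level in db/db was 14.7, 6.36, 10.2 and 3.72 CPM in replicates 1 to 4, the same order of libraries as for Cryab.

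Hspb7, a small heat shock protein of heart and skeletal muscle, was at 1.21, 3.80, 0.376 and 7.22 CPM in WT and at 73.1, 24.8, 60.3 and 17.5 CPM in db/db. The genotypes did not overlap, although the WT libraries spanned 19.2-fold, on 1 to 17 counts, and the db/db libraries 4.18-fold. The log2 fold change was 3.82 (SE 0.54), and 3.43 (SE 0.50) without db/db replicate 1. It was 4.61 without WT replicate 4, the WT library with the most Hspb7. Hspb7 passed the count filter through the db/db libraries, where it was high.

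Hspb6, which encodes HSP20, a regulator of smooth muscle relaxation, was at 37.2, 46.8, 25.6 and 60.7 CPM in WT and at 284.6, 122.8, 210.1 and 86.7 CPM in db/db. Its log2 fold change was 2.05 (SE 0.31), and 1.71 (SE 0.26) without db/db replicate 1. The lowest db/db library was 1.43-fold above the highest WT library. Hspb6 shares exonic bases with Proser3 and Lin37 on the opposite strand and with a microRNA gene, Gm38670, so its counts are uncertain.

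Hspb1, which encodes HSP25 and binds actin filaments, was at 82.6, 149.4, 72.1 and 87.4 CPM in WT and at 296.9, 212.5, 250.4 and 255.9 CPM in db/db, without overlap. WT replicate 2 was the highest WT library. The log2 fold change was 1.38 (SE 0.19), and 1.29 (SE 0.19) without db/db replicate 1.

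The pair that acts together in chaperone-assisted autophagy differed less. Hspb8, the small heat shock protein that BAG3 binds, was at 51.8, 56.1, 67.6 and 76.4 CPM in WT and at 149.2, 109.8, 84.2 and 97.1 CPM in db/db. Its log2 fold change was 0.81 (SE 0.18), and 0.62 (SE 0.16) without db/db replicate 1, and the lowest db/db library was 1.10-fold above the highest WT library. Bag3 was at 22.7, 26.6, 36.1 and 38.2 CPM in WT and at 54.5, 60.8, 66.5 and 66.2 CPM in db/db. The log2 fold change of Bag3 was 1.0 (SE 0.18), and 1.05 (SE 0.19) without db/db replicate 1. In contrast to Cryab, db/db replicate 1 was the lowest db/db library for Bag3.

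Of the filament genes, Des overlapped between the genotypes and Vim did not. Des was at 18.2, 23.6, 30.8 and 51.8 CPM in WT and at 187.1, 53.4, 109.0 and 45.0 CPM in db/db, so that db/db replicate 4 lay below WT replicate 4. The log2 fold change of Des was 1.67 (SE 0.38), and 1.14 (SE 0.30) without db/db replicate 1. The antisense gene Gm15179 shares 220 exonic bases with Des, whose counts are uncertain for that reason.

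Vim was at 295.4, 403.0, 331.8 and 292.9 CPM in WT and at 1186, 1500, 1124 and 1136 CPM in db/db. Libraries of the same genotype lay close together, spanning 1.38-fold (WT) and 1.34-fold (db/db), and the lowest db/db library was 2.79-fold above the highest WT library. The log2 fold change was 1.90 (SE 0.15), and 1.92 (SE 0.14) without db/db replicate 1.

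**Figure D1:**
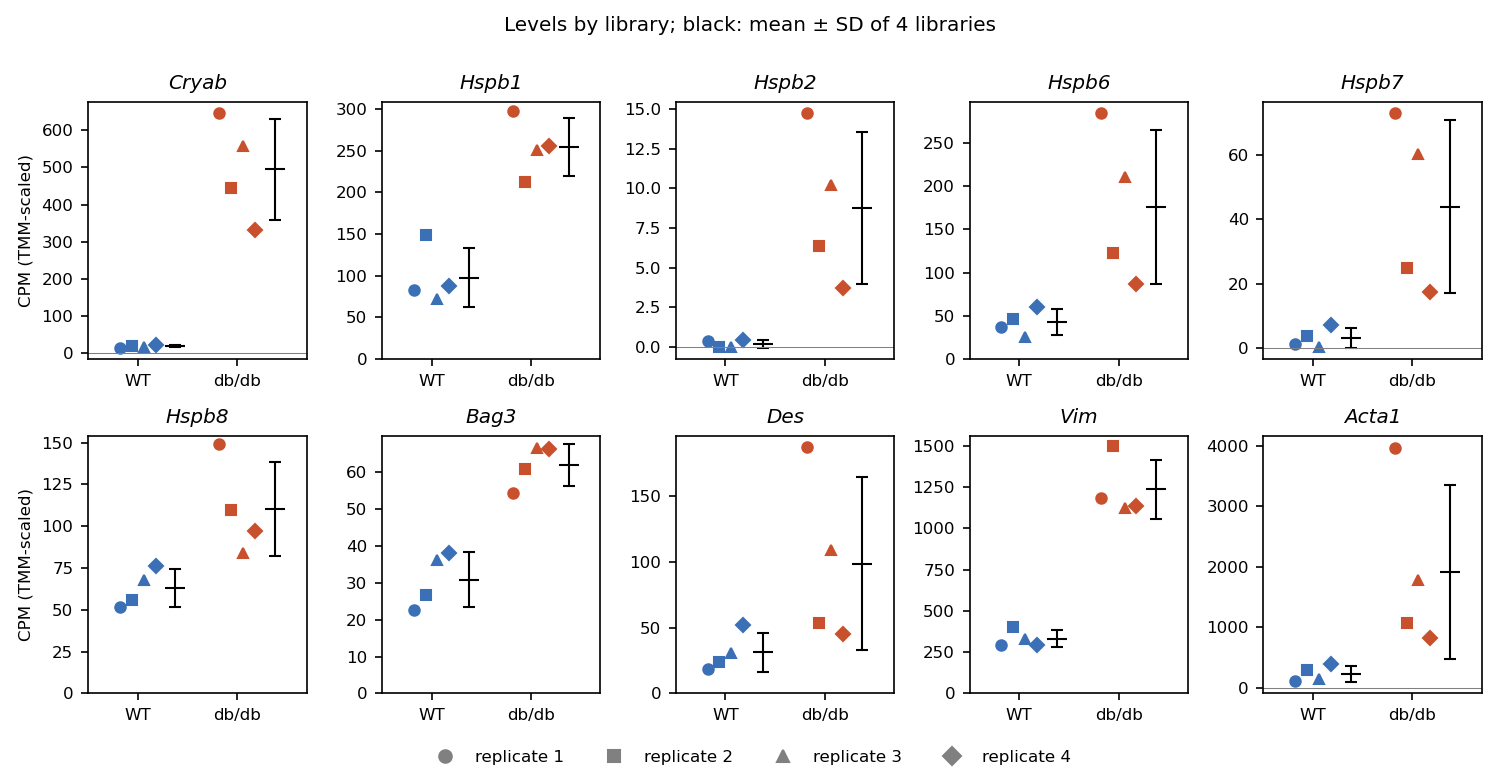
Levels in CPM (vertical axes, from 0, each panel with its own scale) of the 9 genes and of Acta1 in the 4 WT and 4 db/db libraries; each point is a library, with a shape for its replicate number, and the black bars are the mean ± SD. Des is the panel in which the genotypes overlap, and db/db replicate 1 is the highest library for Cryab, Hspb1, Hspb2, Hspb6, Hspb7, Hspb8, Des and Acta1 but the lowest of db/db for Bag3.

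Counted by the edgeR fit across 9264 genes, 8 of the 8 members tested were higher in db/db at an adjusted p of 0.05, where 15.8% of all genes tested were higher. Of these 8, 7 had every db/db library above every WT library, against 15.3% of all genes tested. As the genes were chosen on this contrast, nothing is read from these counts. The median log2 fold change of the 8 was 1.79, and that of all genes tested 0.01.

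The libraries differed in skeletal muscle RNA, and the values of Acta1 are given beside those of the chaperones for that reason. Acta1 was at 109.7, 283.2, 134.5 and 395.2 CPM in WT and at 3977, 1063, 1788 and 813.2 CPM in db/db. All 28 skeletal muscle markers were tested and 26 were higher in db/db, with a median log2 fold change of 2.51 and a range of 0.58 to 4.59. The difference of Cryab, 4.73, lay above this range. None of the 28 was at 0 in every library. Their part in the genotype differences of the members was not tested.

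Within a genotype, the genes fell along Acta1 to different degrees. The order of the db/db libraries by Acta1, which was replicate 1, 3, 2 and 4 from the highest, was the same for Cryab, Hspb2, Hspb6, Hspb7 and Des. In WT the order by Acta1 was replicate 4, 2, 3 and 1, and Cryab alone of the 9 had it. The libraries form 2 clusters of 4, too few for a correlation within each, and the genes were chosen with this relation in view, so it is not tested and is given as the log2 change per doubling of Acta1 within genotypes, which would be 1 for a gene in proportion to Acta1 and 0 for one unrelated to it. Over the other 27 skeletal muscle markers its median was 0.96, and over all genes tested 2.03e-04.

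This change was 1.08 (SE 0.22) for Hspb7, 0.75 (SE 0.18) for Des and 0.63 (SE 0.13) for Hspb6. These 3 genes thus lay nearest to the muscle markers, whose values ran from 0.63 to 1.72. For Cryab it was 0.35 (SE 0.06) and for Hspb2 0.44 (SE 0.21), the latter on few counts. In Hspb2 it was 0.04 (SE 0.30) within WT and 0.74 (SE 0.15) within db/db, and the pooled value was 0.27 when db/db replicate 1 was left out and 0.28 when replicate 4 was. It was 0.19 (SE 0.14) for Hspb1, 0.20 (SE 0.11) for Hspb8, 0.03 (SE 0.13) for Bag3 and −0.01 (SE 0.10) for Vim. Without WT replicate 2 the value of Hspb1 was 0.12, and without db/db replicate 1 that of Hspb8 was 0.07. For Bag3 the sign turned without WT replicate 1 or 4, and for Vim without WT replicate 4 or db/db replicate 1 or 2.

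**Figure D2:**
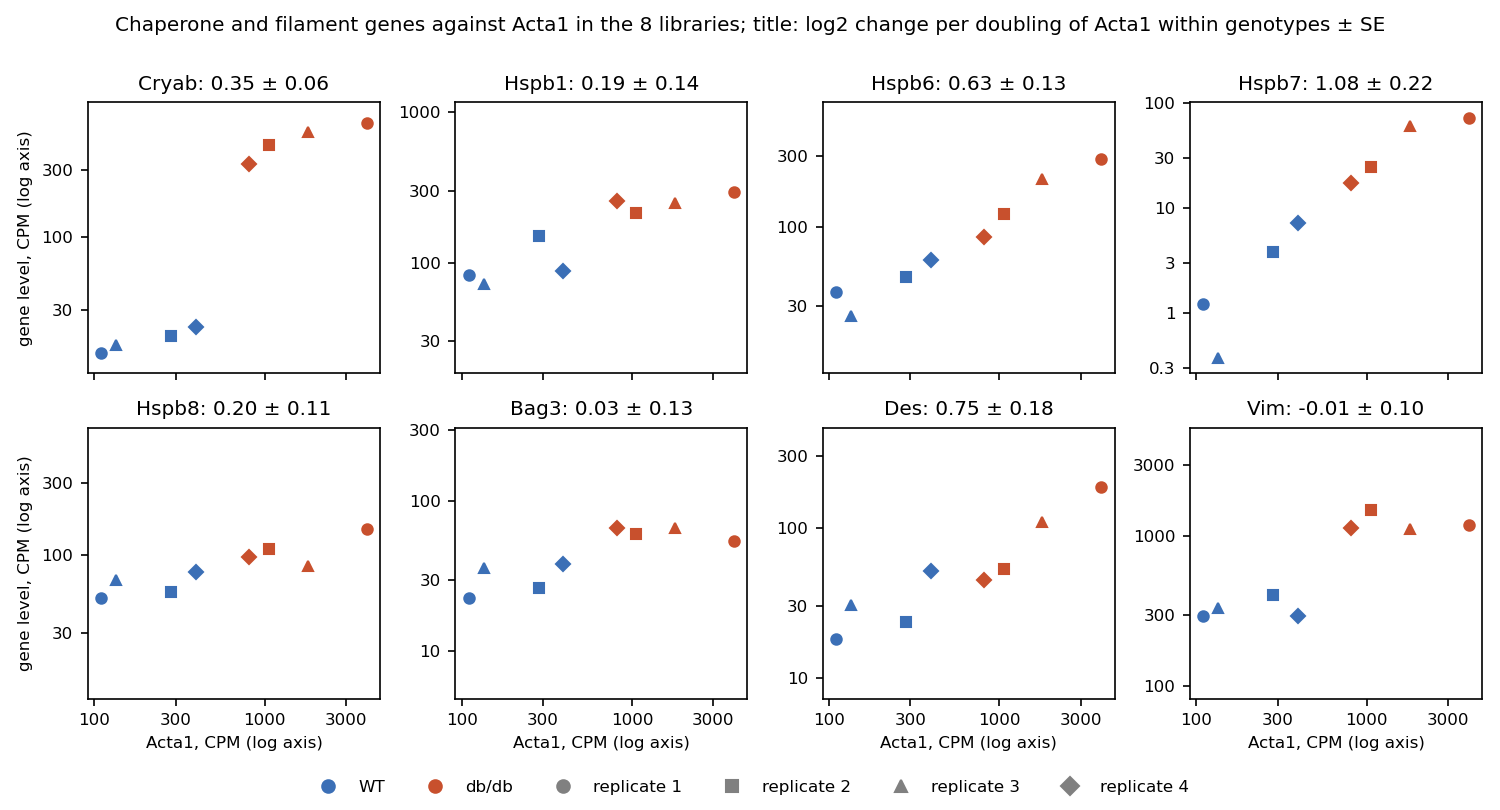
Level of 8 of the genes (vertical axes, CPM, log scale) against Acta1 (horizontal axes, CPM, log scale) in the 8 libraries, WT in blue and db/db in orange, with the log2 change per doubling of Acta1 within genotypes and its SE above each panel. Hspb7 and Des are higher where Acta1 is higher in db/db and, less regularly, in WT, Vim stays level at 292.9 to 403.0 CPM in WT and 1124 to 1500 CPM in db/db, and Cryab shows a step between the genotypes.

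Relative to Acta1, the genes went apart. Cryab had 5.80 to 13.7 CPM for every 100 CPM of Acta1 in WT and 16.2 to 41.9 in db/db, without overlap. Hspb7 was at 0.279 to 1.83 in WT and 1.84 to 3.37 in db/db, with almost touching ranges, on 1 to 17 counts in WT. Hspb2 was at 0 to 0.369 and 0.371 to 0.599, where the top of the WT range is 1 count, so no order is read from it. Des went from 8.35 to 22.9 in WT to 4.70 to 6.10 in db/db, and Hspb6 from 15.4 to 33.9 to 7.16 to 11.8. Hspb8 and Bag3 were also lower relative to Acta1 without overlap, with Hspb8 at 19.3 to 50.3 in WT and 3.75 to 11.9 in db/db. Hspb1 and Vim overlapped on this scale. A ratio of this kind shows unequal change of both genes and not that either stayed the same.

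With Acta1 as a second term of the edgeR fit, the log2 fold change of Cryab was 3.64 (SE 0.30) in place of 4.73 and that of Vim 1.93 (SE 0.31) in place of 1.90. Bag3 stood at 0.97 (SE 0.38) and Hspb1 at 0.79 (SE 0.35). The values of Hspb7, Hspb8 and Hspb6 went down to 0.80 (SE 0.60), 0.18 (SE 0.33) and 0.08 (SE 0.35), and that of Des went below 0, to −0.81 (SE 0.43). A score over all skeletal muscle markers in place of Acta1 gave 3.94 (SE 0.22) for Cryab, 1.94 (SE 0.24) for Vim and −0.21 (SE 0.28) for Des. With the score Hspb7 stood at 1.74 (SE 0.48) and Hspb6 at 0.64 (SE 0.28), above their values with Acta1, as did Hspb1 at 1.09 (SE 0.28) and Hspb8 at 0.33 (SE 0.25), and Bag3 stood at 0.93 (SE 0.29). Acta1 did not overlap between the genotypes either, so this term takes up part of the genotype difference.

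**Figure D3:**
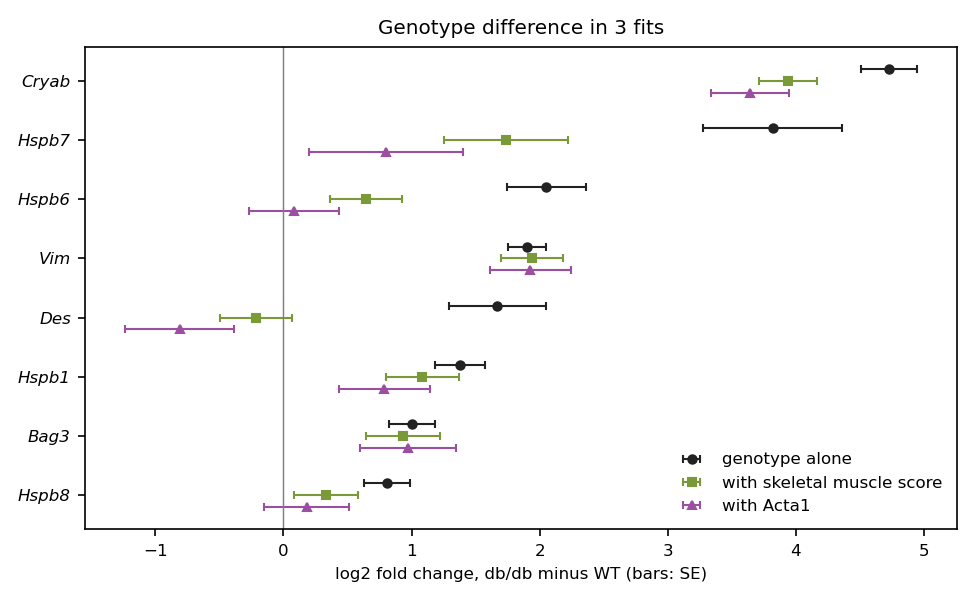
Log2 fold change, db/db minus WT, of the 8 genes tested, with genotype alone (black), with a skeletal muscle score (green) and with Acta1 (purple) as a second term; bars are SE. Vim stays between 1.90 and 1.94 and Cryab above 3.6 in the 3 fits, while Hspb6 goes from 2.05 to 0.08 and Des from 1.67 to −0.81.

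Markers of other cell types were counted in the same fit, in which 15.8% of all genes tested were higher and 11.9% lower in db/db. All 9 macrophage markers tested were higher, and the list summed to 154.9 to 203.6 CPM in WT and 738.5 to 1296 CPM in db/db. Of 8 fibroblast markers 7 were higher, with sums of 628.0 to 774.8 and 1184 to 2570 CPM. Smooth muscle markers were higher in 2 of 5 tested, with sums of 68.8 to 123.7 and 232.7 to 383.3 CPM, and Schwann cell markers in 3 of 5, with sums of 151.4 to 235.5 and 453.9 to 659.6 CPM. Pericyte markers were higher in 2 of 6. Of 8 endothelial markers 0 were higher and 3 lower, and of the 8 brown adipocyte markers tested 0 were higher and 6 lower, and of 6 adipocyte markers 2 were higher. No marker of these lists was at 0 in every library. Of the smooth muscle, pericyte, adipocyte and endothelial markers most did not pass. The part of these cell types in the differences of Vim, Cryab and the other genes was not tested.

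Of 55 further genes of the chaperone and filament network, 30 could be tested, of which 9 were higher and 3 lower in db/db, while 15.8% and 11.9% of all genes tested were higher and lower. Their median log2 fold change was 0.07. Without db/db replicate 1, 8 were higher and 4 lower, beside 13.6% of all genes higher and 969 of 9385 genes tested lower. The calls that differed were Plec, which no longer passed, and the filament gene Synm, which did. The calls of Flnc, Flna, Lmna, Dst, Plec, Bag4, Dnajb6 and Sqstm1 given below were lost both with Acta1 and with the skeletal muscle score as a second term, and those of Synpo and Jup with Acta1.

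Among 20 partners of BAG3 and of chaperone-assisted autophagy, 18 were tested and 5 were higher. Synpo2, whose product myopodin is the adaptor of this pathway at the Z-disc, was at 2.02, 2.53, 3.01 and 4.24 CPM in WT and at 118.5, 75.1, 82.4 and 54.3 CPM in db/db. Its log2 fold change was 4.79 (SE 0.29), with every db/db library above every WT library. Like Hspb7, Synpo2 passed the count filter through the db/db libraries, with 5 to 10 counts in WT, so its values are given as a description, although it is among the 9 counted as higher. Synpo, which encodes synaptopodin, an actin-binding relative, rose by 2.19 on the log2 scale (SE 0.33). With 4 to 15 counts in WT, Synpo also needed the db/db libraries to pass the count filter. Its values are likewise given as a description, although it is counted as higher.

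Filamins are actin cross-linkers and clients of BAG3. Flna, which encodes a widely expressed filamin, had a log2 fold change of 1.15 (SE 0.24, adjusted p = 0.00167), with every db/db library above every WT library. The muscle filamin Flnc was at 1.62, 4.64, 0.752 and 3.82 CPM in WT and at 25.0, 10.2, 37.2 and 2.23 CPM in db/db (log2 fold change 2.77, SE 0.64). The genotypes overlapped in Flnc, since db/db replicate 4 lay below 2 WT libraries, and with limma-voom Flnc was not called. With 2 to 11 counts in WT it passed the count filter mainly through db/db, so its values, too, are given as a description, although it is counted as higher.

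In the other direction, Bag4, a BAG protein that binds death receptors, fell by 0.77 (SE 0.20, adjusted p = 0.00765) on the log2 scale. The HSP40 gene Dnajb6 fell by 0.76 (SE 0.15, adjusted p = 9.32e-04), and Sqstm1, the autophagy receptor p62, fell from 330.5 ± 24.8 to 243.2 ± 15.3 CPM (SD, n = 4 each; edgeR adjusted p = 0.0112). Bag4, Dnajb6 and Sqstm1 share exonic bases with genes on the opposite strand and are uncertain. The remaining 10 did not pass. Of these, Stub1, Hspa1a, Hspa8 and Map1lc3b share exonic bases with other genes, in Hspa8 with 3 small nucleolar RNA genes on its own strand, and Hspa1a has a near-identical copy, Hspa1b, so these are uncertain. Among the 10, the constitutive HSP70 gene Hspa8 had a log2 fold change of 0.14 (SE 0.16, adjusted p = 0.566), the ubiquitin ligase gene Stub1 one of 0.04 (SE 0.14, adjusted p = 0.85) and the heat-inducible gene Hspa1a one of 0.20 (SE 0.59, adjusted p = 0.841).

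Heat shock factors, which drive chaperone genes under stress, were not called. Hsf1 had a log2 fold change of 0.14 (SE 0.40, adjusted p = 0.83) and Hsf2 one of 0.29 (SE 0.27, adjusted p = 0.451), and Hsf4 was below the filter. Of the other small heat shock proteins, Hspb11 was tested and did not pass (log2 fold change −0.42, SE 0.30, adjusted p = 0.33), Hspb3 and Hspb9 were below the filter, and the lens gene Cryaa had 0 counts in every library.

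Of 19 other intermediate filament genes 4 were tested, and the nuclear lamina gene Lmna was higher, at 29.1, 26.6, 38.3 and 36.1 CPM in WT and 98.7, 54.7, 65.6 and 79.6 CPM in db/db (log2 fold change 1.20, SE 0.19, adjusted p = 1.59e-04). Synm, which encodes the desmin partner synemin, did not pass (log2 fold change −0.70, SE 0.28, adjusted p = 0.0747), and its counts are uncertain, since it shares exonic bases with Ttc23 and Gm45102 on the opposite strand. Gfap, Prph, Nefh, Ina, Krt8, Krt18, Krt14 and Krt5, filament genes of glia, neurons and epithelia, had 0 counts in every library, which at this depth allows up to 0.902 to 1.33 CPM. Among the linkers that tie filaments to junctions and cytoskeleton, 3 of 5 tested were higher. Jup, which encodes plakoglobin, rose from 14.7 ± 4.41 to 41.7 ± 11.7 CPM (SD, n = 4 each; edgeR adjusted p = 1.88e-04). Dst rose by 0.94 (SE 0.18, adjusted p = 8.24e-04) and Plec, which encodes plectin, by 0.78 (SE 0.22, adjusted p = 0.0134) on the log2 scale. Plec shares exonic bases with Parp10 on its own strand and Dst with 2 genes on the other strand, so both are uncertain.

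**Figure D4:**
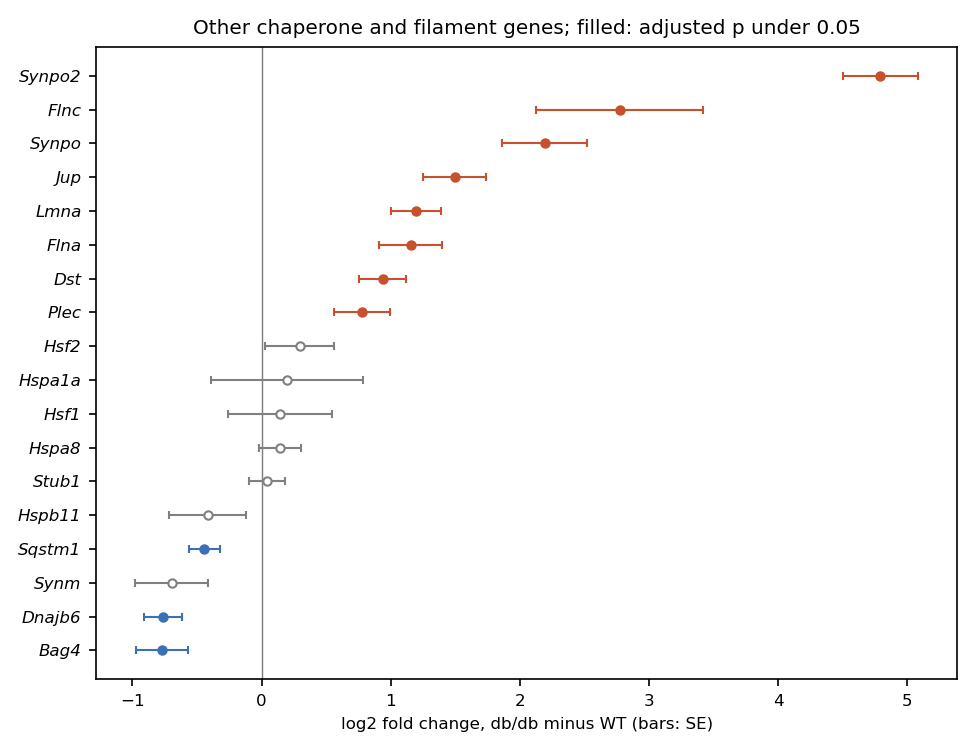
Log2 fold change, db/db minus WT, of 18 tested chaperone, autophagy and filament genes named in the text that are not among the 9, with SE bars; filled points passed an adjusted p of 0.05, red for higher and blue for lower in db/db. Synpo2 stands at 4.79, Flnc at 2.77 and Synpo at 2.19, the lowest are Dnajb6 and Bag4, and the points of Hsf1, Hsf2, Hspa8 and Stub1 are not filled.

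Profiles over the 8 libraries were compared by the root mean square difference of log2 CPM, each gene centred on its mean, over 8681 genes with a mean of at least 5 CPM. The gene nearest to Cryab was Synpo2, at 0.17, followed by the calcium-binding protein gene S100a6 at 0.34 and the phosphatase gene Dusp9 at 0.36. Dusp9 had 0 counts in all 4 WT libraries, so its WT values, and with them its distance, are set by the prior count of 2. Acta1 was at rank 66 from Cryab. Hspb7 was nearest to Mb, the myoglobin gene, at 0.32, then to Rpl3l and to the slow troponin gene Tnnt1, and Acta1 was at rank 7. For Hspb6 and Des, whose neighbours are given next, Acta1 was at ranks 242 and 1034, behind its rank for Cryab. By distance, however, Acta1 was nearer to Hspb6, at 0.63, and to Des, at 0.82, than to Cryab. Hspb6 was nearest to the muscle genes Pygm, at 0.24, Atp2a1 and Tmem38a, and Des to Actn3, at 0.25, Mlf1 and Mybpc2.

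Genes with less spread had other neighbours. Vim was nearest to S100a11, at 0.15, Tstd3 and Mturn, and Hspb1 to the myosin kinase gene Mylk, at 0.16, Bmyc and Tbc1d7. Hspb8 was nearest to Trp53inp2, at 0.12, Ccdc91 and H2-DMa, and the genes near to Bag3 included Limk2 and Dynll1, both at 0.15. Of the 3 nearest genes of Hspb6, Hspb7 and Des, Pygm, Atp2a1, Mb, Tnnt1, Actn3 and Mybpc2 were among the skeletal muscle markers, and those of Cryab, Hspb1, Hspb8, Bag3 and Vim held none of that list.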

How the data were processed

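BAT of WT and db/db mice was profiled by single-end mRNA sequencing through a commercial service. Per the methods, the authors trimmed reads with bbduk, aligned them to mm10 with STAR and counted them per gene with HTSeq-count, while the submitters' processing notes name Trimmomatic, HISAT2 and DESeq2, and GRCm38 and mm10. The deposited raw counts per Ensembl gene were used here. Strand setting and use of molecular identifiers are not given in the sources used here, so PCR copies may be included and counting intervals cover counting error only. The deposited log2-scaled table and the sample sheet were not used.

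Of 31053 genes, 31011 were matched to GENCODE M21 (mm10), and the other 42 held at most 0.00213% of the counts of a library. Genotype and replicate number were taken from the sample titles. Genes were filtered with filterByExpr (minimum count 10, minimum total 15), which left 9264, scaled by TMM, and compared with edgeR 4.0.16 (quasi-likelihood test, R 4.3.3), in a model of genotype alone. Adjusted p-values are Benjamini-Hochberg values over all 9264 genes, with a threshold of 0.05, and SE were derived from the F statistic. The p-values judge the genotype difference against the spread between libraries of the same genotype. Log2 CPM used a prior count of 2. Profiles and changes per doubling of Acta1 were computed on that scale, the latter on deviations from the genotype means.

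Named are the 9 genes and Acta1, the called genes of the network lists, up to the 6 with the largest log2 fold change in each direction, and the 3 genes nearest in profile to each tested member. Dst, Plec and the genes of the lists that were not called are outside this rule and were chosen after their values were seen. Results for 2 genes are not reported here. The members and lists were chosen with earlier results of these data known.

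Alternatives were DESeq2 1.42.0, limma-voom (limma 3.58.1), 3 other scalings, 2 other filters, the replicate number as a block, Acta1 or a skeletal muscle score as a covariate, other prior counts and leaving out each library. The fit was tested on simulated data. Both genotypes have replicates 1 to 4, from different animals, and the deviations of same-numbered libraries correlated at −0.08 to 0.05, so they were not treated as pairs. Promoters are those of RefSeq. Figures were drawn with matplotlib.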

Additional observations from a re-analysis of the deposited data

Results flagged for a closer look

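Of 20 sets of 4 libraries, the 9 genes and Acta1 in each genotype, 1 had its highest value set apart beyond Dixon's 95% critical value, which chance alone exceeds in about 1. It was Vim in db/db replicate 2, at 1500 CPM on 4716 counts against 1124 to 1186 CPM in the other db/db libraries.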

How the results depend on the processing

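The covariates moved the counts most. With Acta1 as a covariate, 248 genes differed in place of 2568, 195 higher and 53 lower, 2 of the 8 members tested passed (Cryab and Vim), and 1 network gene was higher and 0 lower. With the skeletal muscle score these were 705, 509 and 196, with 4 members (Cryab, Hspb1, Hspb7 and Vim), and 3 network genes higher and 0 lower. Both covariates differ between the genotypes. Des went to −0.81 with Acta1 and to −0.21 with the score on the log2 scale. Under the scalings, filters and other tests, the lowest number of genes differing was 2018, when each sample had to hold 10 counts, and the highest 3170, when any count sufficed. Every member tested stayed higher, 9 of 9 without a filter and 7 of 7 with the strict one, which took out Hspb2 and Hspb7.

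A replicate block in the model gave 2557 genes differing, 8 members passing, and 9 network genes higher and 4 lower, Synm being the one added. Leaving out each library in turn gave 2236 to 2483 genes differing, 8 to 9 members, 8 to 9 network genes higher and 3 to 4 lower. The log2 change per doubling of Acta1 ran from -0.0845 to 0.15 for Bag3 and from -0.0583 to 0.0392 for Vim over these fits. For Hspb8 it went from 0.20 to 0.07 without db/db replicate 1. It had a median over the 9 genes of 0.35, and of 0.27 to 0.36 without 1 library. Without db/db replicate 1 the log2 fold change of Des was 1.14, the lowest of its fits without 1 library. Depth limits Hspb2 and Hspb7, with 0 to 17 counts in the WT libraries.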
